A study of Mus musculus with 6 samples.

Results

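The dual specificity MAP kinase phosphatases examined here are Dusp1, Dusp2, Dusp3, Dusp4, Dusp5, Dusp6, Dusp7, Dusp10 and Dusp16. They were found as all probe sets that the platform annotation assigns to exactly 1 gene bearing one of these symbols, which gave 15 of 45037 probe sets tested and 9 of 18193 genes. RNA of progenitors from male mice aged 6 weeks was measured on 6 Affymetrix arrays, of which 3 held GFP-positive and 3 GFP-negative cells. Both groups carried the genotype Hes1 GFP/WT, in which green fluorescent protein reports activity of the Hes1 locus from 1 of its copies, and no mouse without the reporter was compared. All cells were sorted from bone marrow as lacking lineage markers and Sca1 and bearing c-Kit, the phenotype of myeloerythroid progenitors, and 5 ng of RNA per sample was amplified. The sort therefore holds progenitors of several fates, and the labels do not say whether arrays come from separate animals, so the p-values rest on the spread of these samples alone, and that spread may be technical.

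Mitogen-activated protein kinases are switched on when a kinase upstream phosphorylates a threonine and a tyrosine in their activation loop, and dual specificity phosphatases switch them off by removing both phosphates. The ERK branch relays signals of growth factor and cytokine receptors, while JNK and p38 respond mainly to stress and inflammatory signals. Many of these phosphatases are themselves transcribed in response to the kinases they inactivate, so they are known as negative feedback genes. Dusp1, Dusp2, Dusp4 and Dusp5 are nuclear and inducible, Dusp6 and Dusp7 are cytoplasmic and prefer ERK, Dusp10 and Dusp16 prefer JNK and p38, and Dusp3 is a small phosphatase without the kinase-binding domain of the others.

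Hes1, the gene behind the sorted reporter, was higher in GFP-positive arrays by 1.27 on the log2 scale (limma adjusted p = 0.00141), as a check of the labels, and Kit, on which all cells were sorted, lay between 11.13 and 11.53 in every array. Array medians were 59.9 to 62.1 in intensity in GFP-positive and 63.6 to 64.8 in GFP-negative arrays, so they differed by group without overlap. The main fit did not remove this offset. With medians subtracted, 5218 probe sets were called higher in GFP-positive arrays, in place of 2860 (limma adjusted p under 0.05). Summed intensity of 48 immunoglobulin probe sets was 7562 in GFP-negative array 3 and 8796 in GFP-positive array 1, against 1941 to 3077 in the other 4 arrays, so results are also given without these 2 immunoglobulin-rich arrays. Lineage genes differed between the groups. The counts called are to be read against 9.92% of all genes called lower and 8.15% called higher. Of 9 granulocyte-monocyte markers 9 were lower in GFP-positive arrays, with a summed intensity of 28345.5 to 35708 against 65506 to 70416, and of 8 stem and multipotent markers 7 were lower and 1 higher (6497 to 7639 against 12517 to 14231). Of 8 erythroid markers 6 were higher and 0 lower (39284 to 43307 against 27659.7 to 27887). Summed intensity was 336.9 to 385.4 against 270.0 to 275.4 for 8 T and NK cell markers, with 1 higher and 0 lower. Their mean per probe set lay below every array median, so this difference is uncertain. For 9 markers of mast cells, basophils and eosinophils the sum was 2198 to 4975 against 7317 to 7869.9, with 2 higher and 4 lower. For 8 markers of stroma and endothelium the sum was 2147 to 2632 against 5011 to 5995. Of these, 2 were lower, Pecam1 and Cd34, and Cd34 is also among the stem and multipotent markers. The other 6 were not called, and the median log2 difference of the 8 was 0.07. For 6 megakaryocyte markers the sum was 5572 to 6560.0 against 3933 to 4983 (1 higher). The ranges overlapped for 8 late neutrophil markers (6476 to 18367 against 3137 to 7624, 1 lower) and for 11 of B and plasma cells (3134 to 6095 against 5709 to 7889, 2 lower). The part of these lineage differences in the phosphatase values was not tested.

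Dusp5, Dusp6, Dusp2 and Dusp7 were lower in GFP-positive than in GFP-negative progenitors, by 4.91-fold, 2.21-fold, 2.19-fold and 1.56-fold. Dusp16 was higher by 1.88-fold. Dusp1, Dusp3, Dusp4 and Dusp10 did not pass the threshold, an adjusted p under 0.05. In this count each gene is read from whichever of its probe sets had the highest mean across all arrays. Thus 4 of 9 genes (44.4%) were called lower, where 9.92% of all 18193 genes were, and 1 of 9 (11.1%) was called higher, where 8.15% of all genes were. The 9 were chosen with earlier results of these data known, so this contrast is a description and not a test. The share called higher lies near that of all genes. By probe set, 5 of 15 were lower (7.66% of all probe sets were) and 1 of 15 was higher (6.35%). At least 2-fold lower were 3 of the 9, against 5.82% of all genes. Dusp2 and Dusp6 lay close to that limit and fell short of it in some refits. The log2 difference of Dusp2 was -0.97 after quantile normalization, and that of Dusp6 was -0.998 without GFP-positive array 1. The groups did not overlap for 5 of the 9, against 45.6% of all genes, and the 5 were those called. The median log2 difference was -0.54 over the 9 genes and 0.11 over all genes. In RNA from a mixed population, fewer cells of a type and less RNA per cell cannot be told apart.

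**Figure D1:**
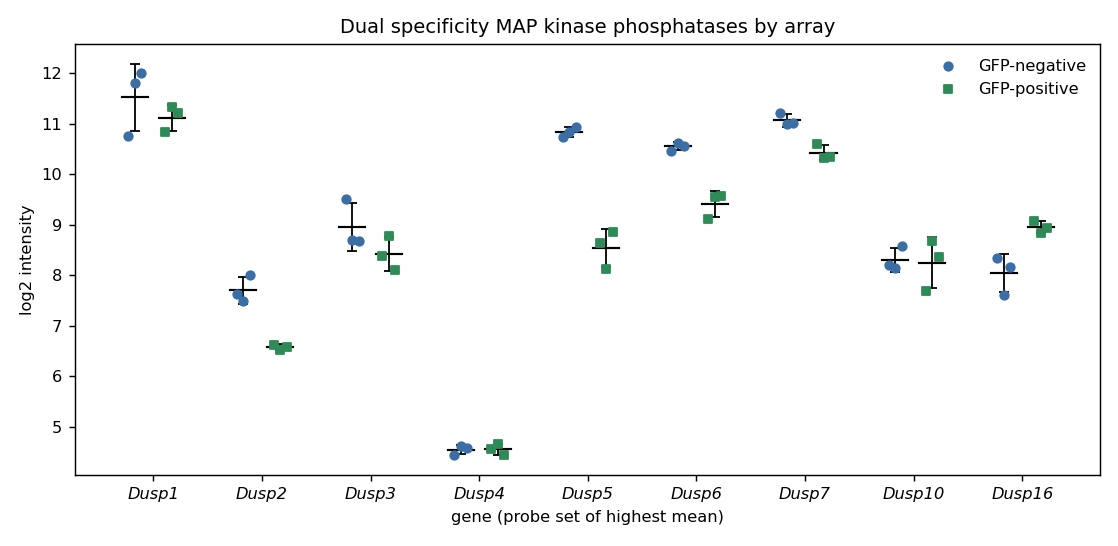
Log2 intensity (vertical axis) of the representative probe set of each of the 9 genes (horizontal axis) in the 3 GFP-negative arrays (circles) and 3 GFP-positive arrays (squares), with the group mean (bar) and SD (whiskers). For Dusp2, Dusp5, Dusp6 and Dusp7 every GFP-positive array lies below every GFP-negative array, and for Dusp16 above. Heights cannot be compared between genes.

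The 250 bases before the annotated start are shown for the genes with the 3 largest falls and for the one that rose. They are RefSeq sequences of build GRCm38.p6, printed 5′ to 3′ on the strand of the gene. Capitals mark matches on either strand to any of 8 motifs.
Dusp5 (chr19:53528895-53529144, + strand): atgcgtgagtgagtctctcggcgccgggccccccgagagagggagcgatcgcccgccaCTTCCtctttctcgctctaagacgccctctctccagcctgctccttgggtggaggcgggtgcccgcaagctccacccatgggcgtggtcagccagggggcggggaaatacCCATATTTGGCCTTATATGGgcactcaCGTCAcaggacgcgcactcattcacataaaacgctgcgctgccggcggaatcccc
Dusp6 (chr10:99262981-99263230, + strand): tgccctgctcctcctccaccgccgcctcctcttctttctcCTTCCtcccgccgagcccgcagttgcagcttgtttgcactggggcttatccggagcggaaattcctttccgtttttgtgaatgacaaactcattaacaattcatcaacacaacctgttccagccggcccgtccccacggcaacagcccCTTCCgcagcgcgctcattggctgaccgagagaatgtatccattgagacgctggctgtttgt
Dusp2 (chr2:127335909-127336158, + strand): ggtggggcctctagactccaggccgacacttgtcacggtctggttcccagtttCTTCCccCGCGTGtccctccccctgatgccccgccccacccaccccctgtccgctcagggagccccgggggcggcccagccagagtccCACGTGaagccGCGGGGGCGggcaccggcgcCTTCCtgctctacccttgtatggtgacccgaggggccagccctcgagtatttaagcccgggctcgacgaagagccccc
Dusp16 (chr6:134792629-134792878, - strand): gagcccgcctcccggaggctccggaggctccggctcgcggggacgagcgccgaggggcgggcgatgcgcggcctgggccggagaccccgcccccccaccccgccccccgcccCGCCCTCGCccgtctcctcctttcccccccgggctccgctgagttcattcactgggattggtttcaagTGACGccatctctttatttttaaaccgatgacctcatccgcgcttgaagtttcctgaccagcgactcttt
The motifs were the CArG box bound by serum response factor, the cAMP response element TGACGTCA, its half-site TGACG, the AP-1 site TGANTCA, the Ets core GGAAG, the Egr site GCGNGGGCG, the GATA site AGATAA and CACGNG, a form bound by Hes proteins. They were chosen after values had been seen, and full cAMP elements contain the half-site. Windows were held for 8 of the 9 genes, all but Dusp4. Dusp5 held 2 CArG boxes that lie side by side, CCATATTTGG from 82 to 73 and CCTTATATGG from 72 to 63 bases before the start. A CArG box was found in 1.47% of 32851 windows of the same length, and in none of the other 7 held here. Dusp5 also held 1 cAMP half-site (17.8% of windows) and 1 Ets core (64.1%). Dusp6 held 2 Ets cores and no other of the motifs. Dusp2 held 2 Ets cores, 1 Egr site (4.7% of windows) and 2 matches to CACGNG (23.5%). Dusp16 held 1 Egr site and 1 half-site. Of genes whose windows are not printed, Dusp1 held the full cAMP element (1.55% of windows), 3 half-sites, of which 2 lie within that element, and 1 match to CACGNG. Dusp3 held 2 matches to CACGNG and 1 Ets core, so matches to CACGNG lay before Dusp2, which was called, and before Dusp1 and Dusp3, which were not. Dusp7 and Dusp10 held none of the 8 motifs. Neither the GATA site (9.99% of windows) nor the AP-1 site (6.75%) was found in any of the 8. The letters are a description of these windows, and no binding was measured.

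Among the nuclear phosphatases, Dusp5, which dephosphorylates ERK and holds it in the nucleus, had the largest difference of the 9. Its log2 intensity was 10.74, 10.84 and 10.94 in GFP-negative arrays 1 to 3 and 8.64, 8.13 and 8.86 in GFP-positive arrays 1 to 3. The highest GFP-positive array thus stayed well below the lowest GFP-negative array. The group means were 10.84 ± 0.10 and 8.54 ± 0.37 (SD, n = 3 each), a difference of -2.30 with a standard error of 0.19 (limma adjusted p = 0.00151). The 95% interval of the fold ran from 3.55 to 6.80. Dusp5 has a single probe set. The part of the paired CArG boxes in this difference was not tested.

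Dusp2, a phosphatase known from activated leukocytes, read 7.62, 7.48 and 8.003 in the GFP-negative arrays and 6.62, 6.51 and 6.57 in the GFP-positive arrays. The GFP-positive arrays lay close together and below all GFP-negative ones. The means were 7.70 ± 0.27 and 6.57 ± 0.06 (SD, n = 3 each), a log2 difference of -1.13 with a standard error of 0.15 (limma adjusted p = 0.00571).

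Dusp1, an immediate early phosphatase of JNK, p38 and ERK, read 10.75, 11.81 and 11.996 in the GFP-negative arrays and 10.83, 11.32 and 11.21 in the GFP-positive arrays. The groups overlapped, since GFP-negative array 1 was the lowest of all 6. The difference was -0.40 with a 95% interval from -1.22 to 0.42 (limma adjusted p = 0.455). Without GFP-negative array 1 it was -0.78 (adjusted p = 0.0536), and without the 2 immunoglobulin-rich arrays it was -0.016. Fos, an immediate early gene whose arrays varied in the same experiment, read 11.75, 12.34 and 12.46 against 8.61, 11.14 and 10.85 (limma adjusted p = 0.0990). The Fos groups did not overlap, while those of Dusp1 did. In the GFP-negative group both genes were lowest in array 1, and in the GFP-positive group both were lowest in array 1. A shared cause of this spread was not tested.

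Dusp4, a nuclear phosphatase of ERK and JNK, read 4.44 to 4.61 in GFP-negative and 4.43 to 4.65 in GFP-positive arrays. These values lie below the median of the arrays, where a difference in the RNA may not be visible, and no detection calls were used. The difference was 0.0058 with a 95% interval from -0.24 to 0.25 (limma adjusted p = 0.977).

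Both cytoplasmic ERK phosphatases among the 9 were lower. Dusp6, a feedback gene of ERK signalling that binds ERK in the cytoplasm, read 10.46, 10.62 and 10.56 in the GFP-negative arrays and 9.10, 9.54 and 9.57 in the GFP-positive arrays. The groups did not overlap, and GFP-positive array 1 was the lowest. The means were 10.55 ± 0.08 and 9.40 ± 0.26 (SD, n = 3 each), a log2 difference of -1.15 with a standard error of 0.15 (limma adjusted p = 0.00514).

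Dusp7, the closest relative of Dusp6 among the 9, has 3 probe sets. The representative one read 11.21, 10.98 and 11.01 against 10.60, 10.33 and 10.35, a log2 difference of -0.64 with a standard error of 0.12 (limma adjusted p = 0.0189). The groups did not overlap. The ID of the representative probe set ends in _x_at, which marks probe sets that can pick up other sequences. The next brightest gave -0.71 with a standard error of 0.12 (limma adjusted p = 0.0129), so both brighter probe sets were called in the same direction. The dimmest gave 0.12 with a 95% interval from -0.55 to 0.79 (adjusted p = 0.793). Dusp9, the remaining cytoplasmic ERK phosphatase and not among the 9, read 6.54 ± 0.27 and 6.50 ± 0.11 (SD, n = 3 each), a log2 difference of -0.03 (limma adjusted p = 0.900). The sign of this value turned after quantile normalization (0.11) and after subtraction of array medians (0.043).

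**Figure D2:**
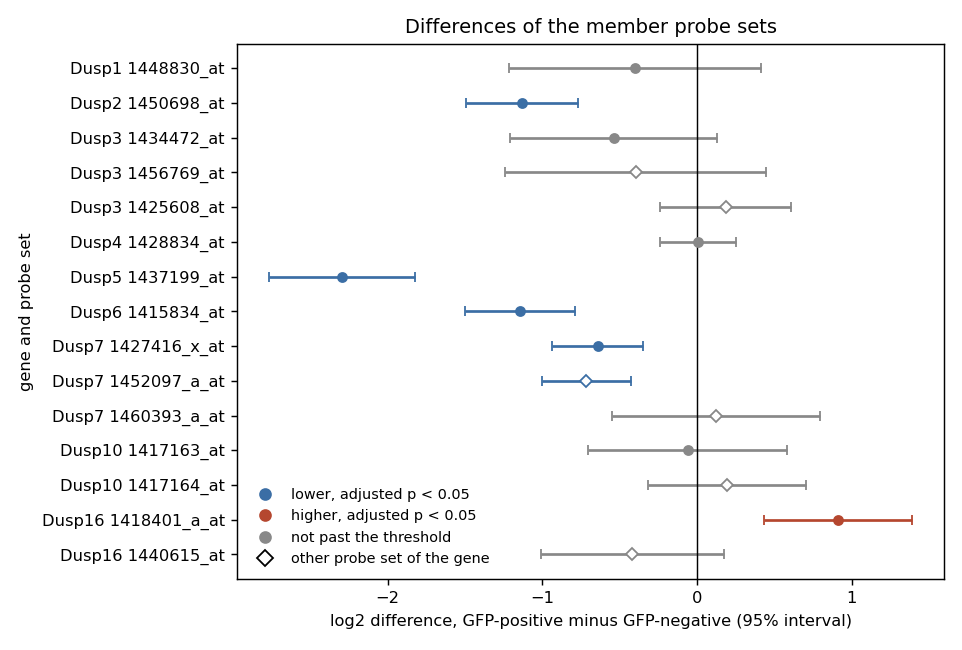
Log2 difference, GFP-positive minus GFP-negative (horizontal axis), of each of the 15 probe sets (vertical axis) with its 95% interval from limma. Filled circles are representative probe sets, open diamonds the other probe sets of a gene, and colour gives the call at an adjusted p under 0.05. Dusp5 lies farthest from 0 at -2.30, and only Dusp16 (0.91) lies above 0 among the called ones.

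Of the phosphatases that prefer JNK and p38, Dusp16 was called higher and Dusp10 was not called. Dusp16, which prefers JNK, read 8.34, 7.61 and 8.16 in the GFP-negative arrays and 9.07, 8.83 and 8.94 in the GFP-positive arrays. Every GFP-positive array was above every GFP-negative one, and the spread was wider in the GFP-negative group. The means were 8.04 ± 0.38 and 8.95 ± 0.12 (SD, n = 3 each), a log2 difference of 0.91 with a standard error of 0.20 (limma adjusted p = 0.0303). Its other probe set lay below the array median and gave -0.42 (95% interval -1.01 to 0.17; adjusted p = 0.292), so the rise of Dusp16 rests on 1 of 2 probe sets.

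Dusp10, which inactivates JNK and p38, read 8.20, 8.13 and 8.57 against 7.69, 8.67 and 8.36. The GFP-positive arrays spanned the GFP-negative range on both sides. The difference was -0.06 with a 95% interval from -0.70 to 0.58 (limma adjusted p = 0.899), and its sign turned with either rescaling of the arrays (0.035 after quantile normalization, 0.017 after subtraction of medians). The second probe set gave 0.19 (adjusted p = 0.569). Dusp8, a further JNK and p38 phosphatase outside the 9 and named after its values were seen, was higher by 0.45 on the log2 scale (limma adjusted p = 0.0217). It lost this call in the leave-one-out fits without any 1 array except GFP-positive array 1 (adjusted p from 0.0379 to 0.0843), with the replicate number as a block, with a trended robust prior (0.0789) and without the 2 immunoglobulin-rich arrays (0.118). Its intensities in GFP-negative arrays, 45.9 to 49.2, lie below every array median, and those in GFP-positive arrays, 61.5 to 66.2, around the medians. The size of the difference is therefore uncertain.

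Dusp3, the small phosphatase of ERK and JNK, read 9.50, 8.69 and 8.67 in the GFP-negative arrays and 8.37, 8.78 and 8.11 in the GFP-positive arrays. GFP-positive array 2 lay above GFP-negative arrays 2 and 3, so the groups overlapped. The difference was -0.54 (95% interval -1.21 to 0.13; limma adjusted p = 0.239). Its other probe sets gave -0.40 and 0.19, with adjusted p-values of 0.476 and 0.502. All 3 intervals include 0 and none shows that Dusp3 is equal in the groups.

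Leaving out any 1 array kept the calls of Dusp2, Dusp5 and Dusp6, with the largest adjusted p at 0.0251, 0.00958 and 0.0257. Without the 2 immunoglobulin-rich arrays the same 3 genes were called (adjusted p = 0.0326, 0.0315 and 0.0337), with log2 differences of -1.01, -2.30 and -0.99. The calls of the other 2 were less firm. Dusp7 lost its call without GFP-negative array 2 (adjusted p = 0.0517), GFP-negative array 3 (0.0572), GFP-positive array 2 (0.0663) and GFP-positive array 3 (0.0642), and without the 2 immunoglobulin-rich arrays (0.0618). Dusp16 lost it without GFP-negative array 3 (0.0741), GFP-positive array 1 (0.0809), GFP-positive array 2 (0.0694) and GFP-positive array 3 (0.0817), and without both arrays (0.155). All 5 kept their direction in these fits. Tested against a fold of 1.5 instead of no change, Dusp5 alone of the 5 passed (adjusted p = 0.00717).

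**Figure D3:**
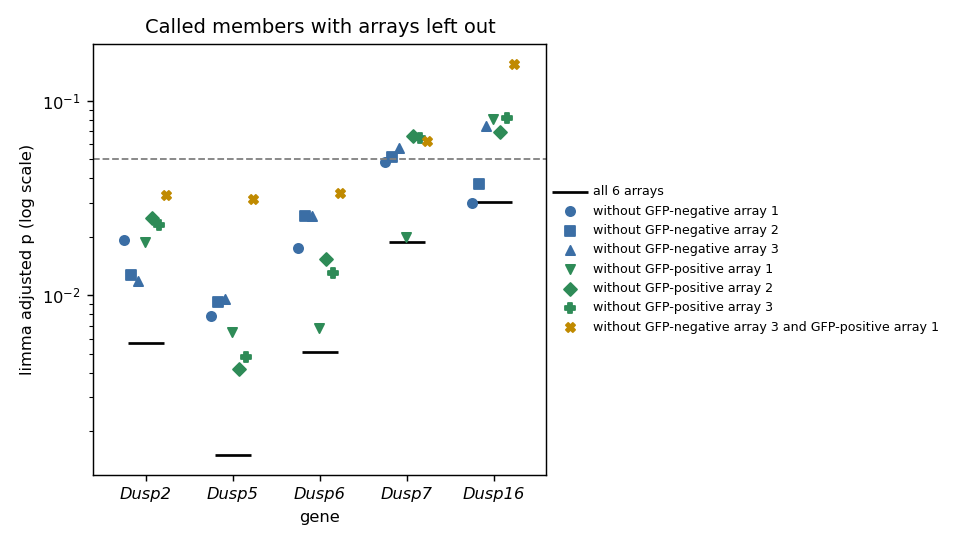
Limma adjusted p (vertical axis, log scale) of the 5 called genes (horizontal axis) with all 6 arrays (bar), with each array left out (blue for GFP-negative, green for GFP-positive) and without the 2 immunoglobulin-rich arrays (yellow). The dashed line is the threshold of 0.05. All points of Dusp2, Dusp5 and Dusp6 lie under it, while those of Dusp7 and Dusp16 lie on both sides.

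How far the members moved apart was read from differences within an array, for 3 pairs chosen after the values had been seen. Dusp5 minus Dusp6, the nuclear and the cytoplasmic ERK phosphatase, was 0.28, 0.21 and 0.38 in the GFP-negative arrays and -0.46, -1.41 and -0.71 in the GFP-positive arrays. The groups did not overlap. Dusp5 minus Dusp6 fell by 1.15 on the log2 scale with a standard error of 0.29 (2-sided exact permutation test, p = 0.1, the smallest that 3 against 3 arrays allow). Dusp16 minus Dusp10, both phosphatases of JNK and p38, was 0.14, -0.52 and -0.41 against 1.38, 0.16 and 0.58. The groups did not overlap but came close, and the change was 0.97 with a standard error of 0.41 (exact permutation p = 0.1). Dusp2 minus Dusp1 was lower in GFP-positive arrays by a difference of -0.73 with a standard error of 0.40, and the groups overlapped (exact permutation p = 0.2). With these group sizes no pair could pass a threshold of 0.05, before or after adjustment for 3 pairs.

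The kinases and adaptors of the MAP kinase pathways gave calls in both directions. The shares of each list are to be read against 9.92% of all genes called lower, 8.15% called higher and a median log2 difference of 0.11. These shares of all genes take in dim genes. Among the brighter 22519 probe sets, refitted alone, 3389 were called lower and 3016 higher, so brighter genes were called more often. Of 27 measured genes of the ERK cascade 6 were lower (22.2%) and 2 higher (7.41%), with a median log2 difference of 0.03. The share called higher lies near that of all genes. Rasgrp2, an exchange factor of Rap and Ras proteins, was lower by 4.11-fold (limma adjusted p = 0.00334). Rasa3, a GTPase-activating protein of Ras and Rap, was lower by 2.15-fold (adjusted p = 0.0108). The docking proteins Gab1 and Gab2 moved apart, with Gab1 at 9.89 ± 0.03 and 10.87 ± 0.07 (adjusted p = 0.00169) and Gab2 at 8.51 ± 0.32 and 7.01 ± 0.65 (SD, n = 3 each; adjusted p = 0.0348). Gab2 lost its call without any 1 array except GFP-positive array 1 (up to 0.111) and without the 2 immunoglobulin-rich arrays (0.0645).

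Of 20 ERK feedback and target genes other than the phosphatases, 2 were lower (10%) and 1 higher (5.0%), with a median of -0.19. Neither share stands above that of all genes. Spry4, a Sprouty inhibitor of receptor signalling to ERK, went the other way from Dusp5 and Dusp6. It read 5.22, 5.40 and 5.44 in the GFP-negative arrays and 6.75, 6.99 and 7.08 in the GFP-positive arrays, a 3.01-fold rise (limma adjusted p = 0.00124). The GFP-negative values lie below the array medians, so the size of the rise is uncertain, and with 16 added to each intensity the log2 difference was 1.29 in place of 1.59. Elk3, an Ets factor that acts with serum response factor, was lower by 3.05-fold (adjusted p = 0.00117). Ier3 was lower by 1.85-fold (adjusted p = 0.0378), a call that failed whichever single array was dropped (0.0547 to 0.114). Egr1, an early target of ERK and chosen with its values known, had a difference of -0.74 with overlapping groups (adjusted p = 0.125).

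Of 30 genes of the JNK and p38 cascades 5 were lower (16.7%) and 3 higher (10%), with a median of -0.01, and the share called higher lies near that of all genes. The p38 target kinases Mapkapk3 and Mapkapk2 were lower by 2.62-fold and 2.31-fold (limma adjusted p = 0.00740 and 0.00361), and Rps6ka5, a kinase downstream of ERK and p38, by 1.78-fold (0.00788). Gadd45b, an activator of the p38 pathway, was lower by 3.37-fold (0.00391). Without the 2 immunoglobulin-rich arrays, the adjusted p was 0.0528 for Mapkapk2 and 0.0566 for Rps6ka5.

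Of 24 other dual specificity phosphatases 4 were lower (16.7%) and 2 higher (8.33%), with a median of 0.10. The share called higher and the median lie near those of all genes. Dusp22, an atypical member that acts in JNK and T cell receptor signalling, had a change close in size to that of Dusp5. It read 9.55, 9.68 and 9.56 against 7.17, 7.32 and 7.26, a 5.09-fold fall (limma adjusted p = 0.000936). Ssh3 and Ssh2, slingshot phosphatases of cofilin, were lower by 1.85-fold and 1.53-fold (adjusted p = 0.0427 and 0.0161), and Ptp4a3 by 1.53-fold (0.0159). Without the 2 immunoglobulin-rich arrays the adjusted p of these 3 was 0.219, 0.131 and 0.0918, and each also lost its call without some single arrays. Of 11 listed tyrosine and serine phosphatases that act on MAP kinases 10 were measured, all but Ptpn7. Of these 10, 0 were called by limma, and 2 had an unadjusted p under 0.05. The 10 include Ppm1a, with a difference of 0.10 (adjusted p = 0.459), and the scaffold subunit Ppp2r1a of PP2A, with -0.01 (adjusted p = 0.955).

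Of 24 immediate early genes 5 were lower (20.8%) and 0 higher, with a median of -0.40. They include Zfp36, a protein that speeds mRNA decay, lower by 5.39-fold (limma adjusted p = 0.00298), the transcription factor Klf4 by 4.36-fold (0.00487) and the AP-1 component Fosl2 by 4.16-fold (0.00478), and Ier3 above. The summed intensity of all 24 genes was 13901 to 17612 in GFP-positive and 20313 to 27299 in GFP-negative arrays. This sum includes genes that were not called, such as Fos, at 390 to 2261 in GFP-positive and 3456 to 5642 in GFP-negative arrays. The part of the shift of this list in the values of the inducible phosphatases was not tested.

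**Figure D4:**
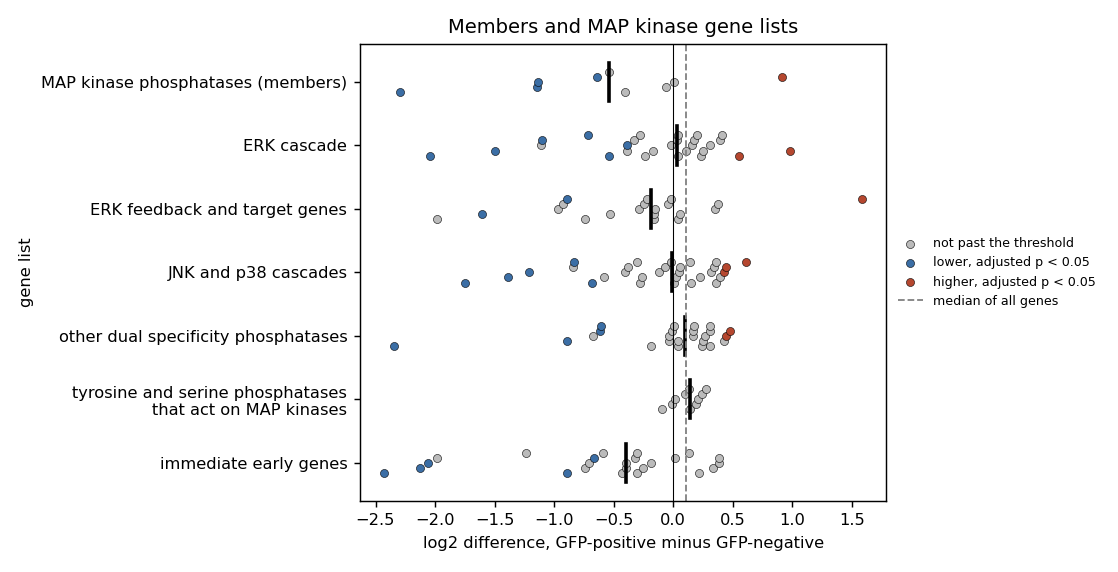
Log2 difference, GFP-positive minus GFP-negative (horizontal axis), of each gene in the lists named on the vertical axis. Blue points were called lower and red points higher at a limma adjusted p under 0.05, thick bars are list medians, and the dashed line is the median of all genes, 0.11. The median of the 9 phosphatases is -0.54, and each list but that of tyrosine and serine phosphatases holds called genes.

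The genes whose pattern over the 6 arrays was most like that of Dusp5, Dusp6 and Dusp2 were sought among 18184 other genes. Likeness was the root mean square difference between the 6 log2 values after each gene's own mean was subtracted. Nearest to Dusp5 were Adgrl4, an adhesion receptor, at 0.04, Csf2rb, the shared beta chain of the receptors for interleukin-3, GM-CSF and interleukin-5, at 0.08, and Casp1, an inflammatory caspase, at 0.09. Nearest to Dusp6 were Arhgap17 (0.05), Fam117a (0.06) and Samd10 (0.06). Nearest to Dusp2 were Osbpl3, Zfp275 and Nrp2, at 0.10, 0.11 and 0.11. All 9 were called lower by limma, with log2 differences from -2.34 for Adgrl4 to -1.004 for Nrp2. With 2 groups of arrays such a match mostly reflects a like difference between the groups.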

How the data were processed

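The deposited values are probe set intensities on a linear scale, 1 column per array, made by the authors with RMA per the submitters' processing notes. Neither the RMA version and settings nor how values came back to a linear scale is stated. Per the labels' protocols, RNA was amplified and biotin-labelled with NuGEN Ovation kits. Values were taken to log2 without further normalization or pseudocount. The table has 45101 probe sets, and its 64 array controls were dropped. Symbols come from GEO's platform annotation, and all 9 members had the same symbol for their gene ID in RefSeq (GRCm38.p6).

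The test was an unpaired, 2-sided limma fit (version 3.58.1, R 4.3.3, lmFit with eBayes), adjusted by Benjamini-Hochberg over 45037 probe sets, threshold 0.05. The number of arrays limits the precision. The members, lists and alternatives were chosen with earlier results of these data known. Of each list up to 4 genes were named, those with the largest change among called genes whose groups did not overlap, or the 2 of highest mean where fewer than 2 were called. The 3 members with the largest change each got the 3 genes most alike. Any further gene was picked with its values known. The fit was tested on simulated data. Promoter windows on opposite strands that overlapped were reverse complements in 1307 of 1307 cases. Permutation tests used scipy 1.17.1, and tables and figures Python 3.11.15, pandas 2.3.3, numpy 2.4.6 and matplotlib 3.10.9.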

Additional observations from a re-analysis of the deposited data

How the results depend on the processing

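Results were refitted with a replicate block, a trended robust prior, a second quantile normalization, median-centred arrays, only the brighter 22519 or brightest 11260 probe sets, array weights, a fold floor of 1.5, log2 of the value plus 16, another probe set or the mean of all probe sets for a gene, and arrays left out. In all 45037 probe sets, 2860 were higher and 3452 lower, so 45.3% of calls were higher. With medians subtracted 5218 were higher (61.5% of calls). With the fold floor 348 were higher and 954 lower, and without the 2 immunoglobulin-rich arrays 681 were higher and 1652 lower. Among the brightest 11260 probe sets 2396 were higher and 1893 lower. With 1 array left out the higher count ran from 1212 (without GFP-negative array 3) to 2243 (without GFP-negative array 1) and the lower count from 2192 (without the same array) to 3098 (without GFP-positive array 1). Dropping GFP-negative array 2 left 1257 higher and 2300 lower, dropping GFP-positive array 2 left 1396 higher, and dropping GFP-positive array 3 left 1555 higher.

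Of the 9 phosphatases, 1 was higher and 4 lower. The count higher was 0 among the brightest 11260, where Dusp16 and Dusp2 were not tested, with the fold floor, without the 2 immunoglobulin-rich arrays and for the mean of all probe sets, and ran from 0 to 1 with 1 array left out. The count lower was 1 with the fold floor, 3 among the brightest 11260, for the mean of all probe sets and without the 2 immunoglobulin-rich arrays, and lay between 3 and 4 with 1 array left out. These settings differ in the fold tested against, in the probe sets averaged or in the number of genes or arrays. The cause of each shift was not tested. The labels do not say that replicate numbers pair arrays, and deviations from group means of same-numbered arrays correlated at 0.023, 0.055 and 0.019. With the replicate block 1 phosphatase was higher and 4 were lower, the same genes as without it, and 1969 and 2872 of all probe sets were called. Of the other genes named, the block ended the calls of Ssh3 (adjusted p = 0.0506), Dusp8 (0.0552), Dusp19 (0.0612) and Map2k4 (0.0773) and no other.

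Signs turned only among differences that were not called. Dusp4 gave -0.066 after quantile normalization, -0.017 with array weights and -0.045 to 0.063 with 1 array left out. The dim Dusp7 probe set gave -0.054 with array weights, -0.086 without both arrays and -0.19 to 0.32 with 1 left out. Dusp10 gave 0.035 after quantile normalization, 0.017 with medians subtracted, 0.048 with array weights, 0.35 without both arrays and -0.27 to 0.22 with 1 left out, and its second probe set -0.0077 to 0.41. Dusp9 gave 0.11, 0.043 and 0.052 under the same first 3 settings and -0.14 to 0.11 with 1 left out. Ppp2r1a gave 0.068 with medians subtracted, 0.025 without both arrays and -0.032 to 0.015 with 1 left out. Signals near the dim end, as for Dusp4 and the second Dusp16 probe set, limit what can be seen.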

Other observations

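Among further genes of the stress-activated MAP kinase cascades, named after their values were seen, calls went in both directions. Gadd45a, a stress-induced activator of the p38 pathway, was 1.53-fold higher in GFP-positive progenitors (10.99 ± 0.11 to 11.60 ± 0.02, log2 intensity, SD, n = 3 each; limma adjusted p = 0.00954), while its relative Gadd45b was lower. Map3k5, a kinase that starts JNK and p38 signalling, was 1.60-fold lower (limma adjusted p = 0.00637). Both lost their call without the 2 immunoglobulin-rich arrays. Map2k4, a kinase that activates JNK, was 1.34-fold higher (adjusted p = 0.0490). Mapk8ip1, a JNK scaffold, was called higher (adjusted p = 0.0182), but its intensities of 31.5 to 45.2 lie below every array median, and the call was lost with a trended robust prior (0.0538) and without the 2 immunoglobulin-rich arrays (0.109). With 1 array left out, the adjusted p of Map2k4 ran from 0.0591 to 0.146 and that of Mapk8ip1 from 0.0402 to 0.0684.

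Among upstream ERK genes, the adaptor Shc1 was 1.47-fold higher (limma adjusted p = 0.0271, and 0.0200 to 0.0951 with 1 array left out). Spry2, a Sprouty inhibitor like Spry4, had a log2 difference of -0.53 with groups that did not overlap (adjusted p = 0.0844, and 0.0182 to 0.205 with 1 array left out). The atypical phosphatase Dusp19, a binding partner of the JNK pathway, was 1.39-fold higher (adjusted p = 0.0394, and 0.0264 to 0.128 with 1 array left out). The immediate early gene Ier2 was 1.59-fold lower (adjusted p = 0.0171, and 0.0252 to 0.0601 with 1 array left out). Without the 2 immunoglobulin-rich arrays Map2k4, Shc1, Dusp19 and Ier2 were not called (adjusted p = 0.234, 0.173, 0.214 and 0.0617).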
